A study of Homo sapiens with 6 samples.

Results

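Antisense RNA genes are named for a gene on the opposite strand, and their symbols join that gene's name to AS and a number, so that GAS6-AS1 lies opposite GAS6. The 307 antisense genes described here were selected on their symbol and on measured level: the symbol had to end in -AS and a number, and the mean normalised read count over the 6 libraries had to be 10 or more, with 1 symbol left out by the rule. Of 553 rows with such a symbol, 246 lay under that mean, and 58 of these were at 0 in every library. The 307 stood among 15622 genes with a mean of 10 or more and 25702 in the table. The levels themselves therefore describe the choice. The rule does not use the comparison of the knockdown with its control, but it was set with earlier results of these data known. Just inside the limit were MNX1-AS1 with a mean of 10.04, STPG3-AS1 with 10.19 and HSDL2-AS1 with 10.19, and just outside were SMARCA5-AS1 with 9.91, IKBKE-AS1 with 9.86 and MAMDC2-AS1 with 9.78.

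The cells were RMS13, a long-established human rhabdomyosarcoma line; this tumour resembles immature skeletal muscle. In 3 libraries (group siGLI1) GLI1 had been lowered with a small interfering RNA (siRNA), and in 3 others (group siNT2) a non-targeting siRNA had been used, all sampled at 72 h. No other genotype or agent is given in the labels, and both groups share the 1 cell line. The labels do not say whether the libraries came from separate cultures, so the spread behind each p-value may be technical.

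GLI1 is a zinc finger transcription factor through which Hedgehog signals reach the genome. In this pathway PTCH1 is the receptor that restrains the signal and HHIP is a decoy that binds the ligands, and both of these are textbook GLI targets. An antisense RNA can start at the same stretch of DNA as its partner and run the other way (a divergent pair), lie inside the partner, or overlap its end. Some antisense RNAs are known to affect the partner's transcription, splicing or stability, others are known only as transcripts, and for most no function is established. The partner here is the gene named before the hyphen.

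GLI1 fell in the siGLI1 libraries, to 580, 906 and 1274 normalised reads from 11962, 17837 and 12774 in siNT2, which is 6.48% of the siNT2 mean. PTCH1 fell by 2.22 on the log2 scale. Libraries held 13673977 to 18947614 reads and had reads on 19355 to 20292 genes. Skeletal muscle markers were high in every library, with a summed level of 42565 to 72070 over 9 genes led by MYOD1, MYOG and CDH15, while MYF5, MYF6 and PAX7 lay under 10. The summed level was 28.6 to 59.0 for 3 epithelial markers, 1.10 to 9.88 for 3 blood markers, 0 to 4.94 for the liver marker ALB and 0 to 6.59 for the glial marker GFAP. The 2 endothelial markers summed to 6.38 to 19.3 in siNT2 and 85.9 to 96.8 in siGLI1, with PECAM1 past the test. The muscle genes DES, CHRNA1 and MYH3 were also called higher. The part of these changes in the results on antisense genes was not tested. Replicate 2 of siNT2 and replicate 3 of siGLI1 stood apart: across genes, the deviation of a library from its group mean had a rank correlation with GC content of 0.69 and 0.74 in these libraries, against -0.30 to -0.68 in the other 4.

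Values below are normalised read counts, that is reads scaled by a size factor of the library and not by gene length. A fold change is the difference of siGLI1 from siNT2 in log2(value + 1), a scale that understates the change of low genes. "Called" means an adjusted p under 0.05 in limma with Benjamini-Hochberg adjustment over all 15622 genes. Whether reads were counted by strand is not given in the sources used here, so reads from an antisense gene and from its partner cannot be told apart where their exons overlap.

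For 304 of the 307 antisense genes the table held a row for the named partner, and in 296 of these pairs both genes were tested. By the RefSeq gene table, 102 antisense genes overlapped the partner at its start, 66 overlapped it at its end, 68 lay inside it and 10 enclosed it. Another 48 were divergent, starting within 1000 bases of the partner on the other strand, and 8 lay further apart. The table put FAM131B-AS2 on the same strand as its partner and gave no strand for LMNTD2-AS1. For 38 called antisense genes the promoter windows were looked up in the RefSeq sequences (GRCh38.p14), each holding 250 bases before and 50 bases after the start. For 23 of the 38 both genes of the pair had a window, and in 6 of these the windows shared bases. The windows of 4 of the 6 antisense genes are shown as examples, and those of DICER1-AS1 and TMCO1-AS1, which share 258 and 106 bases, are not. The starts are those of the gene table and were not read from these libraries. Shown are HHIP-AS1 and B3GALT5-AS1, whose partners were also called lower, and TRIM52-AS1, which was called lower while its partner was not called. The last is URB1-AS1, which was called higher while its partner was not called. Capitals mark the bases that also lie in the partner's window, and each sequence is read 5′ to 3′ on the antisense gene's strand.
HHIP-AS1: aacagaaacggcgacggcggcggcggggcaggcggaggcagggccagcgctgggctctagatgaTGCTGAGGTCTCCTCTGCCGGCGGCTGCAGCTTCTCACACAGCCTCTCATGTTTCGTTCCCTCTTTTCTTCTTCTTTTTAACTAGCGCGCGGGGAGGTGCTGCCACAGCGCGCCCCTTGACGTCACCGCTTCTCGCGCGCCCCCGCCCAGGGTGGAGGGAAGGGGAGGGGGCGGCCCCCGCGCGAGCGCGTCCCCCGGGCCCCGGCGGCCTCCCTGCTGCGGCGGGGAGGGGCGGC
B3GALT5-AS1: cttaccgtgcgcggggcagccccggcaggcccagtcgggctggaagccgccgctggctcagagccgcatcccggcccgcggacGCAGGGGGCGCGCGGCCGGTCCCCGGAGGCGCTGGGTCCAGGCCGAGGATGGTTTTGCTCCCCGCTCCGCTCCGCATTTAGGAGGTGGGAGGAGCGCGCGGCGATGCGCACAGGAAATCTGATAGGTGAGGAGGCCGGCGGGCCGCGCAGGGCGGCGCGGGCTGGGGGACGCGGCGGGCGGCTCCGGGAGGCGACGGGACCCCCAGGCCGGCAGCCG
TRIM52-AS1: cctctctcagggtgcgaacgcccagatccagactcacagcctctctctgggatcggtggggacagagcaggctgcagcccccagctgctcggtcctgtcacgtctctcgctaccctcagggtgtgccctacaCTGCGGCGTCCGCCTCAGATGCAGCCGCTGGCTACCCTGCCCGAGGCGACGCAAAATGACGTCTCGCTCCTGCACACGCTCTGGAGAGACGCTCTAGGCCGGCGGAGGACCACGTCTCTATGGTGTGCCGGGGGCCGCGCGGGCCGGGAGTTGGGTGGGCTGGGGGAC
URB1-AS1: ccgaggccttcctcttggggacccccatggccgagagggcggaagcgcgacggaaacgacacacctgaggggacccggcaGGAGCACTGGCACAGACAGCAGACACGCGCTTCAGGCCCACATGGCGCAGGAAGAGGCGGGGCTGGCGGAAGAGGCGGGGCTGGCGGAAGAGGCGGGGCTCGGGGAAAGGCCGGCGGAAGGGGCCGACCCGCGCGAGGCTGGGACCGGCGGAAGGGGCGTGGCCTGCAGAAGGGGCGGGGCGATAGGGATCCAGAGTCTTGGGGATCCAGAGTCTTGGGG
The HHIP-AS1 window is chr4:144645970-144646269 on the minus strand and shares 236 of 300 bases with the window of HHIP. The B3GALT5-AS1 window is chr21:39612773-39613072 on the minus strand and shares 217. The TRIM52-AS1 window, chr5:181260962-181261261 on the plus strand, shares 168, and the URB1-AS1 window, chr21:32392883-32393182 on the plus strand, shares 220. They are rich in CG pairs: B3GALT5-AS1 has 43, HHIP-AS1 34, URB1-AS1 28 and TRIM52-AS1 25, where the median over 27305 promoter windows is 14. Their GC content is 77.7%, 71.7%, 71.3% and 68.0% in the same order, and the median of the table is 58.3%. The letters GACCACCCA, the core of the GLI binding site, searched on both strands, are in none of the 4 windows. They occur in 68 of 27305 promoter windows (0.249%), in 1 of 247 windows of the antisense genes (RPL26L1-AS1, singled out after the search), in 0 of 22 windows of antisense genes called lower and in 0 of 256 partner windows.

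Of the 307 antisense genes, 7 rose and 31 fell when GLI1 was lowered. In bulk RNA, fewer cells that express a gene and less of its RNA per cell cannot be told apart. The share called was 12.4%, where 15.2% of all genes tested were called. By direction, 2.28% of the antisense genes were called higher, against 7.21% of all genes, and 10.1% were called lower, against 8.0% of all genes. The share called lower was thus near the background. The median log2 fold change of the antisense genes was -0.15, against -0.01 over all genes tested. Over the 5894 genes with a mean under 200 it was -0.04. Of the 307, 191 lay below 0 (62.2%), against 50.8% of all genes and 62.2% of 466 other long noncoding RNA genes. The groups did not overlap for 118 antisense genes (38.4%), 42 higher and 76 lower in siGLI1, where 36.2% of all genes had groups that did not overlap. Among 466 other long noncoding RNA genes 16 were called higher and 55 lower with a median of -0.17, and among 13205 protein-coding genes 1069 were called higher and 1073 lower with a median of 0.01.

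Some antisense genes passed the level limit through 1 group alone: 13 had a mean under 10 in siGLI1 only and 6 in siNT2 only. Without them, 288 remained, of which 7 were called higher and 25 lower, with a median of -0.14. The fold change fell with the GC content of the transcript, with a rank correlation of -0.23 over 297 antisense genes, as it did over 14642 genes (-0.29); these genes share the 6 libraries. With a GC trend removed in each library, 21 antisense genes were called higher and 55 lower, and without siNT2 replicate 2 and siGLI1 replicate 3 together, 10 and 48 were. The shares were 7.07% and 18.5% with GC removed, where 16.6% and 16.1% of all genes were called, and 3.26% and 15.6% without these libraries, where 14.3% and 15.1% were. The shares called lower were again near the background.

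**Figure D1:**
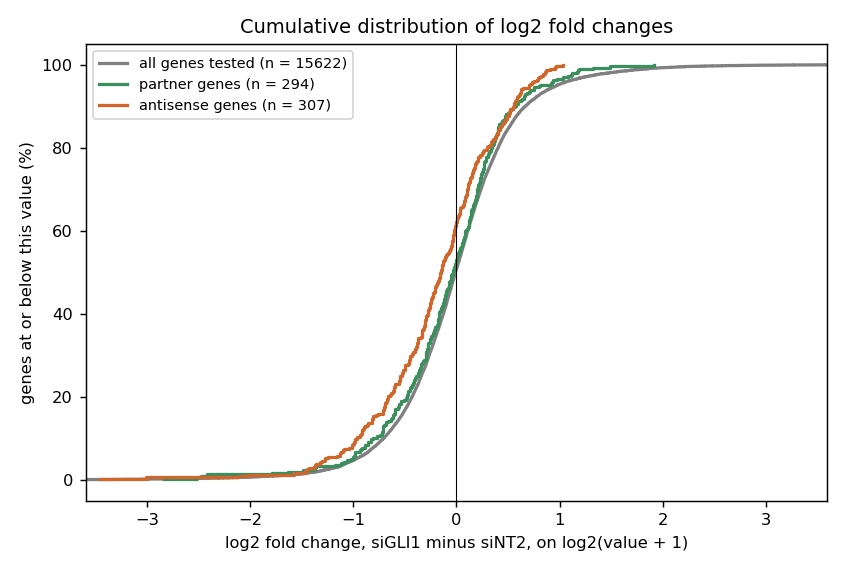
Cumulative share of genes (vertical axis, percent) at or below each log2 fold change of siGLI1 minus siNT2 (horizontal axis) for 307 antisense genes, 294 partner genes and all 15622 genes tested. The antisense line lies to the left of the others around its median of -0.15, and it ends at 1.03, the highest antisense value.

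The largest decreases were in GAS6-AS1, LMNTD2-AS1, B3GALT5-AS1 and ITGB2-AS1, and in each of them the partner fell too. GAS6-AS1, LMNTD2-AS1 and ITGB2-AS1, like HAS2-AS1, DCST1-AS1 and PPP1R26-AS1 below, had siGLI1 means under 10 and passed the level limit through siNT2 alone, so that they could enter only as lower in siGLI1, and among antisense genes at 10 or more in both groups the lowest value was -2.12, that of B3GALT5-AS1. GAS6-AS1 (Entrez gene 650669) overlaps the end of GAS6, which encodes a secreted ligand of the AXL family of receptor kinases. Its normalised read count was 24.2, 62.9 and 33.5 in siNT2 and 1.08, 3.07 and 3.95 in siGLI1. The siGLI1 values rest on 1, 3 and 4 reads, near the 3 reads that a count of 0 allows (2.39 to 3.29 in these units), so the size of the change is poorly bounded. Its log2 fold change was -3.46 (SE 0.47, limma adjusted p = 0.00395). GAS6 measured 30.7, 59.8 and 31.9 in siNT2 and 4.32, 6.13 and 7.90 in siGLI1, a log2 fold change of -2.52 (limma adjusted p = 0.00457). In both genes the highest siGLI1 library was below the lowest siNT2 library, and replicate 2 was the highest siNT2 library. Exons of GAS6 overlap 5.87% of the exonic bases of GAS6-AS1.

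LMNTD2-AS1 (Entrez gene 692247) measured 53.8, 87.2 and 60.6 in siNT2 and 3.24, 10.2 and 10.9 in siGLI1. Its log2 fold change was -3.01 (SE 0.43, limma adjusted p = 0.00492), and that of LMNTD2 was -2.48 (limma adjusted p = 0.0165). The strand of LMNTD2-AS1 was not in the gene tables used, so how it lies to LMNTD2 is not given. B3GALT5-AS1 (Entrez gene 114041) is divergent from B3GALT5, a galactosyltransferase that builds sugar chains on lipids and proteins. B3GALT5-AS1 measured 137, 99.4 and 136 in siNT2 and 31.3, 33.7 and 19.8 in siGLI1, a log2 fold change of -2.12 (SE 0.26, limma adjusted p = 0.00279). B3GALT5 went from 202, 140 and 223 to 116, 87.9 and 63.2, a log2 fold change of -1.09 (limma adjusted p = 0.0358), and its call was kept in 3 of 6 fits that each left out 1 library. No exon of B3GALT5 overlaps B3GALT5-AS1, and the 2 groups of libraries did not overlap in either gene.

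ITGB2-AS1 (Entrez gene 100505746) overlaps the start of ITGB2, the beta chain of the leukocyte integrins. It measured 24.2, 35.5 and 33.5 in siNT2 and 7.56, 4.09 and 9.88 in siGLI1 (log2 fold change -2.02, SE 0.35, limma adjusted p = 0.0103). ITGB2 was far more abundant, at 1495 ± 148 (SD, n = 3) in siNT2 and 284 ± 69.0 (SD, n = 3) in siGLI1, and its log2 fold change was -2.42. Of the exonic bases of ITGB2-AS1, 12.4% overlap exons of ITGB2. HAS2-AS1 measured 27.5, 18.3 and 23.9 in siNT2 and 7.56, 5.11 and 8.89 in siGLI1 (log2 fold change -1.57, limma adjusted p = 0.0153). Its partner HAS2, a synthase of the matrix polymer hyaluronan, had a log2 fold change of -1.63. The HAS2-AS1 call was kept in 3 of the 6 fits without 1 library, and those of GAS6-AS1, LMNTD2-AS1, B3GALT5-AS1 and ITGB2-AS1 in 6 of 6.

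**Figure D2:**
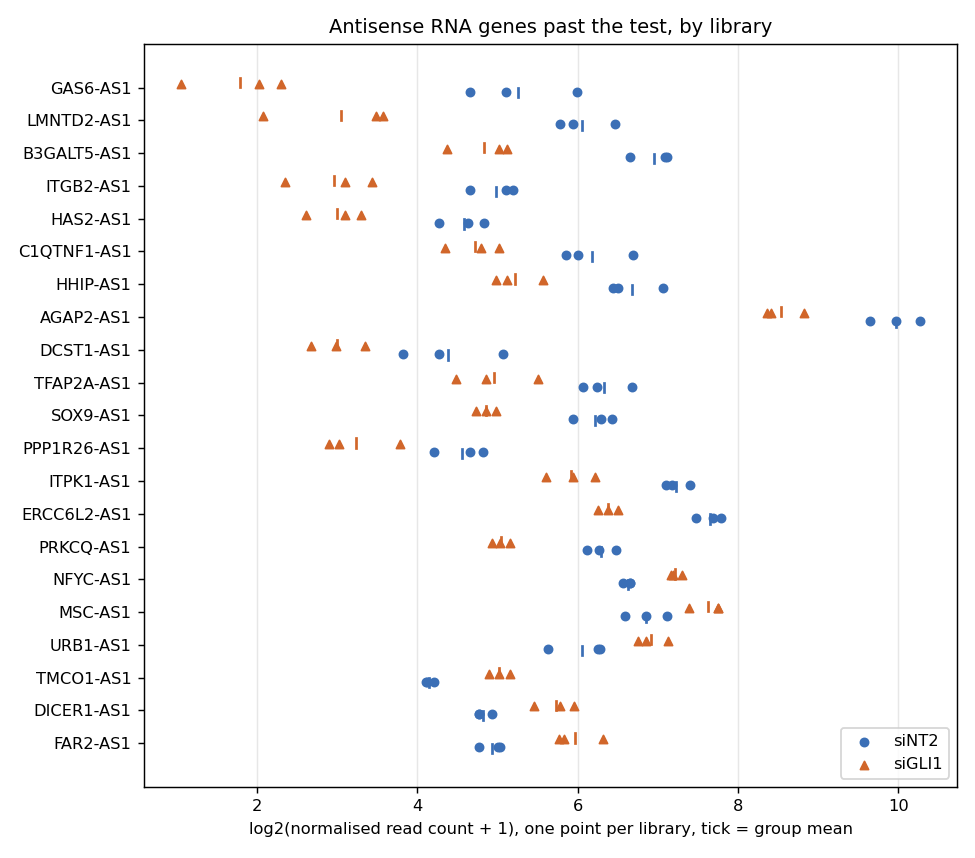
Level of 21 called antisense genes in each library (horizontal axis, log2 of the normalised read count plus 1), with circles for siNT2, triangles for siGLI1 and a tick at each group mean. The 15 largest decreases are above and 6 increases below. In each row the circles and triangles do not overlap, because the genes were picked among those with groups that do not overlap.

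HHIP-AS1 and SOX9-AS1 are divergent from genes known in the Hedgehog field. HHIP-AS1 (Entrez gene 646576) measured 90.0, 86.2 and 133 in siNT2 and 46.4, 33.7 and 30.6 in siGLI1, a log2 fold change of -1.45 (SE 0.25, limma adjusted p = 0.0106). HHIP itself went from 3160, 2890 and 3343 to 1032, 792 and 906, a log2 fold change of -1.79 (limma adjusted p = 0.000596). HHIP-AS1 made up 3.2% of the reads of the pair in siNT2 and 3.9% in siGLI1, with groups that overlapped. Without siGLI1 replicate 2 the HHIP-AS1 call was lost (limma adjusted p = 0.0618). The RefSeq table gives no overlap, but by GENCODE exons 11.4% of the exonic bases of HHIP-AS1 overlap HHIP.

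SOX9-AS1 (Entrez gene 400618) measured 60.4, 85.2 and 77.4 in siNT2 and 28.1, 30.7 and 25.7 in siGLI1 (log2 fold change -1.36, SE 0.21, limma adjusted p = 0.00699). SOX9, a transcription factor of cartilage and many progenitor cells, went from 2629, 2540 and 3253 to 1650, 1521 and 1126 (log2 fold change -0.98, limma adjusted p = 0.0129). No exons of the pair overlap, and the SOX9-AS1 call was kept in 6 of 6 fits without 1 library. ITPK1-AS1 lies inside ITPK1, an inositol phosphate kinase, with no exon overlap. Its level was 149 ± 16.9 (SD, n = 3) in siNT2 and 60.3 ± 12.8 (SD, n = 3) in siGLI1, a log2 fold change of -1.31, and ITPK1 had -0.93 (limma adjusted p = 0.00953).

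Smaller decreases in both genes of a pair were found for SLC9A3-AS1, NR2F1-AS1 and LOXL1-AS1. SLC9A3-AS1 (-0.97, limma adjusted p = 0.0478) and SLC9A3 (-1.0), a sodium and hydrogen exchanger, had close fold changes, and the call of each was kept in 1 of 6 fits without 1 library. NR2F1-AS1 had a log2 fold change of -0.81 and NR2F1, an orphan nuclear receptor, -0.56, each kept in 1 of 6. LOXL1-AS1 had -0.71 and LOXL1, an enzyme that cross-links elastin, -1.49; the antisense call was kept in 0 of 6 and the partner call in 5. In all, 11 pairs had both genes called, and in these 11 both were lower. For 4 of them (GAS6-AS1, LMNTD2-AS1, ITGB2-AS1 and HAS2-AS1) the antisense gene had passed the level limit through siNT2 alone. Without these 4, 7 pairs remained, with both genes lower in each. The 11 stood among 296 pairs with both genes tested. Among overlapping gene pairs without antisense genes, 39 of 1516 had both genes called, 37 of them in the same direction. Among divergent pairs without antisense genes, 6 of 927 had both called, all 6 in the same direction. A shared direction where both genes are called was thus not particular to antisense pairs.

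Other antisense genes fell while the partner did not pass the test. AGAP2-AS1 (Entrez gene 100130776), the most abundant antisense gene called, lies inside AGAP2, which encodes a GTPase-activating protein. It measured 1001, 1238 and 803 in siNT2 and 327, 340 and 451 in siGLI1, a log2 fold change of -1.43 (SE 0.21, limma adjusted p = 0.00492). AGAP2 measured 1587, 2207 and 1604 in siNT2 and 1015, 1451 and 1861 in siGLI1, groups that overlapped, with a log2 fold change of -0.34 (95% interval -0.91 to 0.22). AGAP2 exons overlap 57.7% of the exonic bases of AGAP2-AS1, so the split of reads between these genes is uncertain.

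ERCC6L2-AS1 (Entrez gene 100128782) overlaps the start of ERCC6L2, a helicase-like gene of DNA repair. It measured 205, 177 and 221 in siNT2 and 89.6, 75.7 and 82.0 in siGLI1 (log2 fold change -1.28, SE 0.17, limma adjusted p = 0.00357). ERCC6L2 measured 168, 97.4 and 158 in siNT2 and 286, 138 and 106 in siGLI1, with a log2 fold change of 0.23 (95% interval -0.66 to 1.12) and a wide spread. TFAP2A-AS1 had a log2 fold change of -1.38 (limma adjusted p = 0.0237), and TFAP2A, a transcription factor of neural crest and skin, had 0.10 (95% interval -0.23 to 0.43). The TFAP2A-AS1 call was kept in 1 of 6 fits without 1 library and the ERCC6L2-AS1 call in 6 of 6.

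PRKCQ-AS1 had a log2 fold change of -1.25 (limma adjusted p = 0.00692), and PRKCQ, a protein kinase C, had -0.71 (95% interval -1.42 to -0.01), which did not pass over all genes (limma adjusted p = 0.154). C1QTNF1-AS1 had -1.47 (limma adjusted p = 0.0168), and C1QTNF1, a secreted protein related to complement C1q, had -0.25 (95% interval -0.83 to 0.33). PPP1R26-AS1 had -1.32 (limma adjusted p = 0.0371), with PPP1R26, a regulatory subunit of a protein phosphatase, at 0.02 (95% interval -0.59 to 0.62). DCST1-AS1 had -1.38 at a limma adjusted p of 0.0497, a call kept in 0 of the 6 fits without 1 library. TRIM52-AS1 fell by 0.92 on the log2 scale (limma adjusted p = 0.03), and TRIM52, a ubiquitin ligase gene divergent from it, had 0.47 (95% interval 0.09 to 0.85, limma adjusted p = 0.0954).

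Beyond the 15 largest decreases, 16 further antisense genes fell, by 1.16 to 0.70 on the log2 scale, with siNT2 means from 48.5 to 727. Over the 19 antisense genes called lower whose tested partner was not called, the partner's value lay below 0 in 14 and above 0 in 5, between -1.06 and 0.47. An interval that includes 0 does not show that the partner was unaffected.

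**Figure D3:**
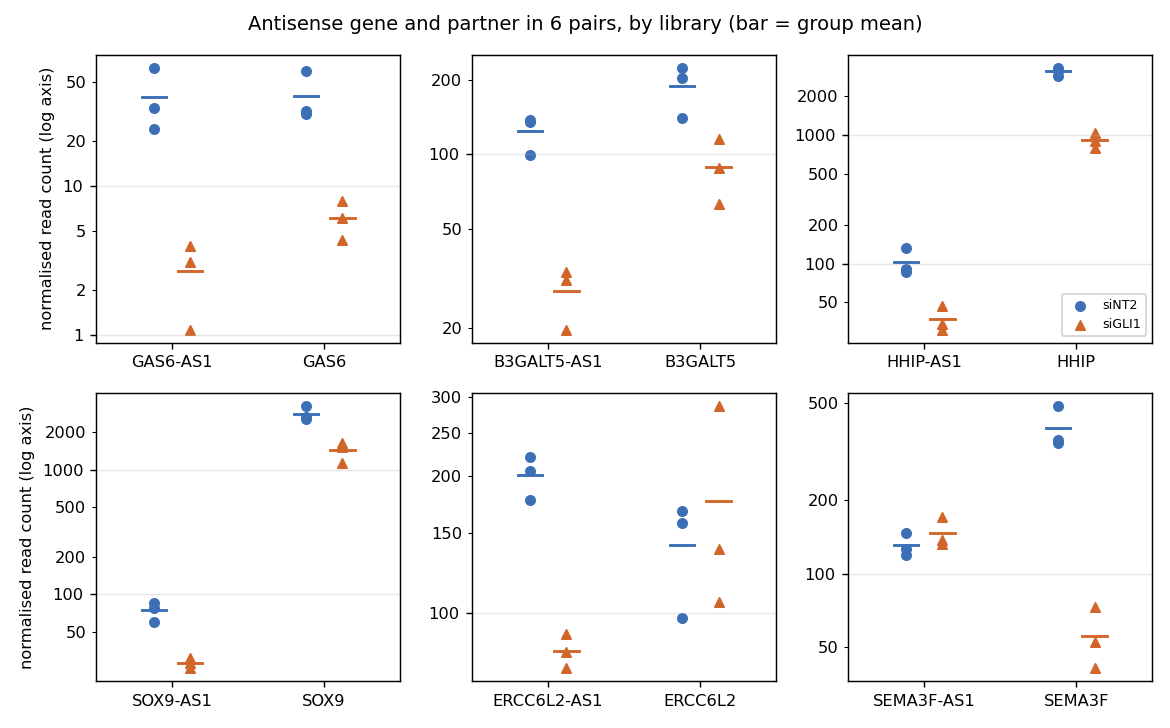
Normalised read count (vertical axis, log scale) of the antisense gene and its partner in 6 pairs, 1 point per library with a bar at the group mean. Both genes are lower in siGLI1 for GAS6, B3GALT5, HHIP and SOX9, only the antisense groups are separate for ERCC6L2, and only the partner groups are separate for SEMA3F.

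The 7 increases were small. FAR2-AS1, inside the fatty acyl reductase gene FAR2, measured 31.8, 26.4 and 31.1 in siNT2 and 56.2, 78.7 and 53.3 in siGLI1, a log2 fold change of 1.03 (SE 0.23, limma adjusted p = 0.0231). DICER1-AS1, opposite the microRNA-processing nuclease DICER1, had 0.91 (limma adjusted p = 0.0312). TMCO1-AS1 had 0.87, URB1-AS1 0.86, MSC-AS1 0.78 and NFYC-AS1 0.59. TMCO1-AS1 had close values within each group, 16.5, 16.2 and 17.5 in siNT2 and 31.3, 34.8 and 28.6 in siGLI1, but DESeq2 gave it an adjusted p of 0.0562. The partners of these 6 genes had values above 0, from 0.11 for FAR2 to 0.52 for MSC (musculin, a repressor in muscle precursors), and none of the 6 partners was called by limma. With a GC trend removed FAR2 and DICER1 lay just below 0, both at -0.05. Without siNT2 replicate 2, and likewise without siGLI1 replicate 1, the values of FAR2 and DICER1 lay below 0, from -0.12 to -0.07. The calls of NFYC-AS1, URB1-AS1 and DICER1-AS1 were kept in 0 of 6 fits without 1 library, that of TMCO1-AS1 in 1 and those of FAR2-AS1 and MSC-AS1 in 2.

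The reverse case, a called partner with an antisense gene that was not called, occurred in 32 of 296 pairs. Among gene pairs without antisense genes, only the gene of higher mean was called in 176 of 1516 overlapping and 84 of 927 divergent pairs. The count was thus near that background. In 17 of the 32 pairs the partner was lower and in 15 it was higher. SEMA3F, a secreted semaphorin that repels growing axons, fell from 355, 488 and 344 in siNT2 to 41.0, 52.1 and 73.1 in siGLI1, a log2 fold change of -2.83 (SE 0.25, limma adjusted p = 0.000905). SEMA3F-AS1, which overlaps its start, measured 126, 147 and 120 in siNT2 and 133, 137 and 171 in siGLI1, with a log2 fold change of 0.16 (95% interval -0.25 to 0.57). The interval of the antisense gene lies wholly above that of SEMA3F, which runs from -3.42 to -2.25, and the difference between the genes was not tested in a model. LMCD1, a LIM domain cofactor, rose by 1.18 on the log2 scale, and LMCD1-AS1, divergent from it, had -0.61 (95% interval -1.60 to 0.38) at levels of 6.91 to 27.9.

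IL21R, a cytokine receptor, rose by 1.49, and IL21R-AS1 had 0.47 (95% interval -0.30 to 1.24). NCAM1, a cell adhesion molecule of nerve and muscle, rose by 1.11, and NCAM1-AS1 had 0.64 (95% interval -0.06 to 1.35). For RBM38, an RNA-binding protein, and RBM38-AS1 the log2 fold changes were both -1.12, but only RBM38 was called (limma adjusted p = 0.00127 and 0.0515). MNX1, a homeobox factor, had -1.39 and MNX1-AS1 -1.47. The antisense gene had 1.08, 9.20 and 6.91 in siGLI1 against 14.3, 15.2 and 13.6 in siNT2 and an adjusted p of 0.128 by limma. MNX1-AS1 had passed the level limit through siNT2 alone, so it could enter only as lower.

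Over the 296 pairs with both genes tested, both values had the same direction in 192 (64.9%): 118 with both below 0 and 74 with both above 0. The rank correlation of the 2 log2 fold changes was 0.48 over the 296 pairs, as a description, since the pairs share the same libraries and can share reads. Of 37 called antisense genes with a tested partner, 32 had the partner's direction. The 37 include GAS6-AS1, LMNTD2-AS1, ITGB2-AS1 and HAS2-AS1, which passed the level limit through siNT2 alone. In overlapping pairs without antisense genes, 121 of 172 called genes of lower mean had the direction of the other gene. In divergent pairs without antisense genes 69 of 99 had. Of the 296 pairs, 26 had only the antisense gene called, 32 only the partner, 11 both and 227 neither. In pairs without antisense genes, only the gene of lower mean was called in 133 of 1516 overlapping and 93 of 927 divergent pairs. The count of 26 was thus near that background. Partners as a group had 15 genes called higher and 28 lower of 294 distinct genes, 14.6% called, with a median of -0.04.

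The likeness differed with how the genes lie. Among 241 pairs that overlap on opposite strands, 67.6% had the same direction and the rank correlation was 0.53. For 54 pairs that do not overlap the values were 51.9% and 0.21, and for the 47 divergent pairs among them 53.2% and 0.22. The difference between these classes was not tested. By exons, 215 pairs with some overlap had 66.0% and 0.49, 72 pairs with none had 63.9% and 0.41, and 112 pairs in which at least 10% of the antisense exonic bases were overlapped had 67.0% and 0.58. Among gene pairs that hold none of the antisense genes, 1516 that overlap on opposite strands had 59.3% and 0.30, and 927 divergent pairs had 59.2% and 0.25.

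**Figure D4:**
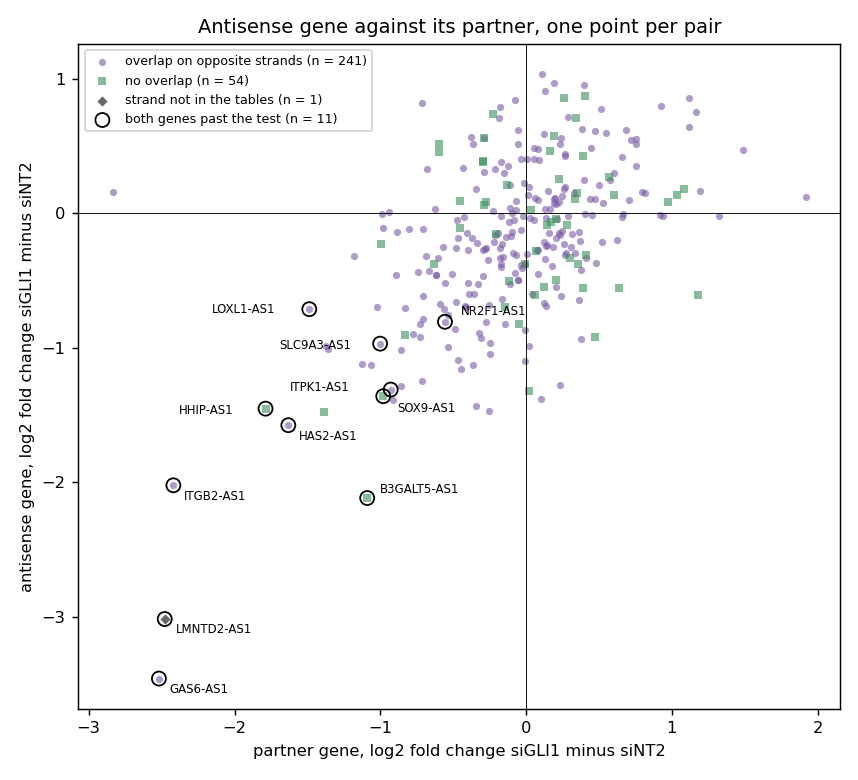
Log2 fold change of the antisense gene (vertical axis) against that of its partner (horizontal axis) for 296 pairs, with circles for pairs that overlap, squares for those that do not, and rings around the 11 pairs with both genes called. All 11 rings lie in the lower left, where both values are below 0, and SEMA3F-AS1 is the point at the far left with a partner value of -2.83.

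The antisense share of a pair, the antisense value divided by the sum of both genes in each library, does not depend on the library's scaling. Over 304 pairs the siGLI1 shares all lay above the siNT2 shares in 42 and all below them in 68, and the groups overlapped in 194. That is 36.2% without overlap, where 41.1% of 2443 overlapping or divergent gene pairs without antisense genes had shares that did not overlap, so the count is not above the background. With 3 libraries against 3 the smallest p an exact two-sided permutation test can give is 0.1, so no pair could pass 0.05. The share of SEMA3F-AS1 was 26.3%, 23.2% and 25.8% in siNT2 and 76.4%, 72.4% and 70.0% in siGLI1. ERCC6L2-AS1 went the other way, from 55%, 64.6% and 58.3% to 23.9%, 35.4% and 43.7%. TRIM52-AS1 made up 47.2% ± 3.3 (SD, n = 3) of its pair in siNT2 and 25.6% ± 5.7 (SD, n = 3) in siGLI1. AGAP2-AS1 made up 36.0% ± 2.7 (SD, n = 3) and 21.0% ± 3.0 (SD, n = 3).

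Where both genes of a pair fell, the share also shifted in some pairs. GAS6-AS1 made up 44.0%, 51.2% and 51.2% of its pair in siNT2 and 20%, 33.3% and 33.3% in siGLI1, on few reads. B3GALT5-AS1 went from 39.9% ± 1.9 (SD, n = 3) to 24.3% ± 3.2 (SD, n = 3). LOXL1-AS1 went the other way, from 15.3% ± 1.7 (SD, n = 3) to 23.9% ± 6.5 (SD, n = 3). SLC9A3-AS1 held 61.7%, 61.4% and 61.2% in siNT2 and 62.1%, 62.0% and 61.9% in siGLI1, the smallest spread among the shares given here. Of the 11 pairs with both genes called, the share was lower without overlap in 6, higher in 2 and overlapping in 3. SLC9A3-AS1 is 1 of the 2, by the small shift given above. The 11 were taken for their calls, and in 4 of them the antisense gene had passed the level limit through siNT2 alone.

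**Figure D5:**
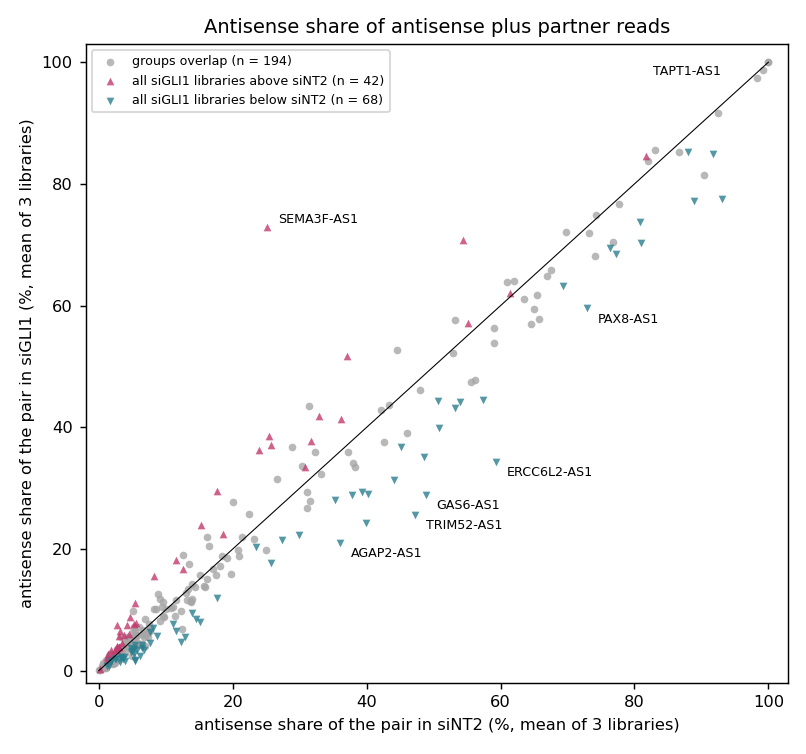
Antisense share of the pair in siGLI1 (vertical axis, percent, mean of 3 libraries) against that in siNT2 (horizontal axis) for 304 pairs, with triangles where the groups of libraries do not overlap. SEMA3F-AS1 lies far above the line of equal shares, at 25.1% and 73.0%, and ERCC6L2-AS1, TRIM52-AS1 and AGAP2-AS1 lie below it.

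By the role of the partner, antisense genes were grouped with lists of symbols that are not complete. SOX9-AS1, MSC-AS1, HAS2-AS1, B3GALT5-AS1 and ERCC6L2-AS1, all called, were in none of the lists. The counts therefore hold for the listed genes only. The 31 antisense genes listed under signalling, adhesion and matrix held 0 called higher by limma and 6 lower, with a median of -0.12. Of those above 0, 3 had an unadjusted p under 0.05, and edgeR and DESeq2 called 1 each. The 6 included GAS6-AS1, ITGB2-AS1, HHIP-AS1, PRKCQ-AS1 and LOXL1-AS1. Of these, GAS6-AS1 and ITGB2-AS1 had passed the level limit through siNT2 alone and could enter only as lower. That raises the share called lower in this group. Of the 20 antisense genes listed under transcription factors and developmental regulators, 17 lay below 0 (85%), with a median of -0.31. Of all 307 antisense genes 62.2% lay below 0. The 20 held 1 called higher, NFYC-AS1, and 4 lower. The 4 were TFAP2A-AS1, NR2F2-AS1, NR2F1-AS1 and PAX8-AS1. PAX8-AS1 measured 176, 193 and 195 in siNT2 and 96.1, 106 and 105 in siGLI1, a log2 fold change of -0.87 (limma adjusted p = 0.0103), while PAX8, a paired box factor, had -0.01 (95% interval -0.46 to 0.45). NR2F2-AS1 had -1.16 (limma adjusted p = 0.0169), and NR2F2, an orphan nuclear receptor, had -0.44 (95% interval -0.90 to 0.01). The shares over all genes tested were 7.21% called higher and 8.0% lower.

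The 20 antisense genes grouped under metabolism and transporters held 0 called higher by limma, edgeR or DESeq2, with 3 at an unadjusted p under 0.05, and 4 lower by limma, with a median of -0.26, again beside 7.21% higher and 8.0% lower over all genes. The 4 were AGAP2-AS1, PPP1R26-AS1, SLC9A3-AS1 and ATP6V0E2-AS1, of which AGAP2 and PPP1R26 are regulators of a GTPase and a phosphatase rather than metabolic genes. PPP1R26-AS1 had passed the level limit through siNT2 alone and could enter only as lower. ATP6V0E2-AS1, opposite a subunit gene of the vacuolar proton pump, had -0.89 (limma adjusted p = 0.0209). The 18 antisense genes to membrane traffic, ubiquitin and proteolysis genes held 1 called lower, TRIM52-AS1. PITRM1-AS1 had -0.60 (limma adjusted p = 0.0801) and AP4B1-AS1 -0.86 (limma adjusted p = 0.113). Among 16 to RNA processing and translation genes 1 was called, DICER1-AS1, and PAN3-AS1 had 0.51 (limma adjusted p = 0.097) and THAP7-AS1 0.56 (limma adjusted p = 0.147).

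Of the 13 antisense genes listed under cell cycle, repair and chromatin 0 were called by limma, edgeR or DESeq2. In this list 3, all lower, had an unadjusted limma p under 0.05. ERCC6L2-AS1, called lower above, was not on the list, though its partner is a gene of DNA repair. DDX11-AS1 had -0.91 (limma adjusted p = 0.0566), TMPO-AS1 -0.52 (limma adjusted p = 0.0624) and CDKN2B-AS1, also known as ANRIL and lying in a locus of cell cycle inhibitors, -0.66 (limma adjusted p = 0.129). Of the 6 antisense genes to muscle, cytoskeleton and calcium genes 0 were called by limma or edgeR and 1, ATP2A1-AS1, by DESeq2 (adjusted p = 0.0407), and 2 had an unadjusted limma p under 0.05. ATP2A1-AS1, opposite the calcium pump of fast muscle, had a log2 fold change of -0.98 (limma adjusted p = 0.0977), and ATP2A1 itself fell by 1.37. PXN-AS1 had -0.62 (limma adjusted p = 0.115) and VIM-AS1 -0.42 (limma adjusted p = 0.469). The remaining 183 antisense genes, in none of these groups, held 5 called higher and 16 lower (2.73% and 8.74%, against the same 7.21% and 8.0% of all genes). The 16 include LMNTD2-AS1, HAS2-AS1 and DCST1-AS1, which had passed the level limit through siNT2 alone.

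In level, the antisense genes ran from the limit of 10 upwards, with quartiles of 23.5, 52.7 and 107, and 4 had a mean of 1000 or more. Together they took 0.293% to 0.402% of all normalised reads in a library. TAPT1-AS1 alone gave 26% to 37.6% of this sum. It measured 16733, 21535 and 12257 in siNT2 and 14273, 14554 and 20016 in siGLI1, with a log2 fold change of -0.03 (95% interval -0.56 to 0.50), and the groups overlapped. TAPT1, its partner and a transmembrane protein known from skeletal development, was at 268 ± 15.7 (SD, n = 3) in siNT2 and 424 ± 46.1 (SD, n = 3) in siGLI1 (log2 fold change 0.66, limma adjusted p = 0.0243). Per kilobase of exon, TAPT1-AS1 stood at 6095 in siNT2 and TAPT1 at 34.2.

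The order per kilobase of exon in siNT2 went on with ASMTL-AS1 at 874, AGAP2-AS1 at 676, UCKL1-AS1 at 377 and THAP9-AS1 at 365, and the median over 297 antisense genes was 21.8. The neighbours UCKL1-AS1 and THAP9-AS1 do not differ beyond their spread, since UCKL1-AS1 measured 952, 2030 and 1091 in siNT2 before division by length. THAP9-AS1 measured 1601, 1587 and 1632 in siNT2 and 1417, 1572 and 1199 in siGLI1, lower in siGLI1 without overlap of the groups. THAP9-AS1 was not called, and 36.2% of all genes had groups that did not overlap. Its partner THAP9, a gene derived from a transposase, stood at 50.6 per kilobase. FGD5-AS1 measured 1340, 882 and 1573 in siNT2 and 1568, 1327 and 897 in siGLI1, with a log2 fold change of 0.00 (95% interval -0.63 to 0.64). ASMTL-AS1 had -0.68 (95% interval -1.58 to 0.23) and UCKL1-AS1 -0.60 (95% interval -1.45 to 0.25), both highest in replicate 2 of siNT2 and replicate 3 of siGLI1 within their groups. Over 287 pairs, the antisense gene was above its partner per kilobase in 53 (18.5%), and the median ratio of partner to antisense gene was 4.84.

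An siRNA is known to lower other transcripts that pair with the first bases of its guide strand. The siRNA's sequence is not given in the sources used here, and the letters GCACCTC, chosen with earlier results of these data known, were counted in the longest GENCODE transcript of each gene, sense strand only, as a description. Of 60 antisense genes that hold them 5 were called lower (8.33%) and 0 higher, and of 237 without them 25 were called lower (10.5%) and 7 higher. The median log2 fold change was -0.27 with the letters and -0.14 without. Over all genes tested, 14.4% of 3473 with these letters and 6.11% of 11168 without them were called lower, with medians of -0.15 and 0.04. Transcripts with the letters were longer, with a median of 2794 against 2131 bases among antisense genes and 4570 against 3180 over all genes, and the part of length in these values was not tested.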

How the data were processed

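RNA sequencing of 6 RMS13 libraries, 3 siNT2 and 3 siGLI1, was analysed. Per the submitters' processing notes, the tools were bcl2fastq, Trim Galore (0.4.5), Bowtie2 (2.3.3.1), Subread (1.6.4) with featureCounts, and DESeq2 (2.11.40.6), on build hg19. The strand setting and annotation are not given in the sources used. The authors deposited a table of signal, in which each gene's read count had been scaled by a size factor of the library. In each library 100.0% of values were whole multiples of 1 read (tolerance 0.01 reads), so whole reads were recovered. Limits given for a count of 0 cover counting error only, and the 95% intervals of fold changes are limma's, from the spread between libraries. No libraries of a group agreed within sampling noise.

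Symbols came from RefSeq (GRCh38.p14), which named 23696 of 25702 rows (92.2%), and partners were matched by symbol, 2 by an older symbol. RefSeq gave strand and gene order, and GENCODE 29 gave exons and GC content. As the builds differ, no gene coordinates are given beyond the promoter windows, which are RefSeq's own.

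The main test was limma 3.58.1 (R 4.3.3; lmFit, eBayes with a trend, group as the only term) on log2(value + 1) of the deposited values, for genes with a mean of 10 or more, with Benjamini-Hochberg adjustment and a threshold of 0.05. Alternatives were edgeR 4.0.16 (quasi-likelihood) and DESeq2 1.42.0 on recovered reads, other pseudocounts, filters and scalings, a GC trend removed, library weights, a replicate block, and leaving out libraries. Without the 2 libraries that stood apart is an alternative chosen after seeing the data. Scripts were tested on simulated data.

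Members, partners and role lists were chosen with earlier results of these data known. Named are the 15 largest decreases and the increases among called antisense genes whose groups did not overlap, and their partners. Also named are the 6 of highest mean, the 6 uncalled whose partner had the smallest p, and pairs with both called. Up to 3 genes per role list and the genes beside the limit were added. The values of 1 of the increases and its partner are not reported here.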

Additional observations from a re-analysis of the deposited data

How the results depend on the processing

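The direction of all 38 called antisense genes was kept in each fit that gave them a value (37 with GC removed, since LMNTD2-AS1 has no GC value), and no called value changed sign. The median fold change of the antisense genes stayed between -0.18 and -0.12 when 1 library was left out. Of the 38 calls, edgeR on recovered reads kept 35 and DESeq2 37, with 8 higher and 28 lower by edgeR and 10 and 42 by DESeq2. With a GC trend removed, calls were 2432 higher and 2354 lower over all genes, 21 and 55 among antisense genes, 44 and 52 among partners, and 30 pairs had both genes called. With library weights they were 4059 and 4215, 56 and 91, 74 and 96, and 85 pairs. Without siNT2 replicate 2 and siGLI1 replicate 3 together they were 2236 and 2356 over all genes, 48 lower among antisense genes, 33 and 57 among partners, and 24 pairs. DESeq2 called 26 partners higher and 20 pairs with both genes. With no filter on low values 4 antisense genes were called higher, and with a mean of 50 or more 3 were. The pairs that do not overlap had the same direction in 51.9%.

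Leaving out 1 library at a time gave 283 to 1562 genes called higher and 358 to 1705 lower, 0 to 5 and 11 to 39 antisense genes, 3 to 26 and 8 to 40 partners, and 2 to 16 pairs with both called. Of the 38 antisense calls 10 were kept in all 6 such fits and 5 in none, and without siGLI1 replicate 2 only 11 of the 38 were kept. The same sign in a pair held for 63.2% to 65.5% of pairs.

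The labels give libraries of the same replicate number a shared code without saying what it marks, so whether they are paired is not known. The correlations of deviations between siNT2 and siGLI1 libraries of the same number were 0.49, -0.11 and -0.61, and not every library correlated best with its own number. With the replicate block 462 genes were called higher and 508 lower, 0 and 14 antisense genes, 6 and 14 partners, and 6 pairs had both called. With the replicate block and the GC trend removed together, 1905 genes, 15 antisense genes and 33 partners were called higher, and 21 pairs had both genes called.

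For the named genes, 1374 of the alternative values kept their side of the threshold, 141 lost it and 42 gained it, and 40 values of genes that were not called changed sign, among them FGD5-AS1, TAPT1-AS1, FAR2, DICER1, ERCC6L2 and PPP1R26. With a pseudocount of 8, 7 shares of a pair moved by more than the spread between libraries. Scaling cannot change the share of a pair by its construction, and the share was not run with GC removed or other filters. Low counts limit the genes near the floor, such as GAS6-AS1: its share fell by 6.06 percentage points with a pseudocount of 8 in place of 19.9.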
